A study of Mus musculus with 16 samples.

Results

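The AP-1 factor genes of fibroblasts were taken as 9 genes, Fos, Fosb, Fosl1, Fosl2, Jun, Junb, Jund, Atf3 and Batf3, and their members in the data were all ChIP-seq summits within 50 kb of a gene start (mm10, GENCODE M21). The rule found 90 of the 227116 summits in 13 libraries. The data came from OG2 mouse embryonic fibroblasts, which carry a GFP transgene driven by the Oct4 promoter, during conversion to induced pluripotent cells. All groups received retroviral Sox2 and Klf4 (SK) with a POU factor as the remaining component and were counted from the switch to a chemically defined medium. For Oct4-SK, Oct4 was precipitated at days 1, 5 and 7 and Sox2 at days 1 and 5. Cells given Oct4defSox2, an engineered Oct4 that pairs poorly with Sox2, were treated alike with the same antibodies on days 1 and 5 (Oct4defSox2-SK). For Oct6-SK cells there are Sox2 libraries of both of these days. Oct4 S151M and Oct6 M151S, in which the residue that governs homodimerisation was exchanged, were profiled at day 1, although another label of the Oct6 M151S sample gives day 2. Each group held 1 library, so no comparison below has a replicate check, and every interval covers counting error only. The cells are virus-driven mixed cultures, and the summits are an average over them, in which binding in fewer cells and weaker binding per cell cannot be told apart. Expression was not measured in these files, so the fibroblast identity of the cells was not checked here.

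AP-1 is a family of basic leucine zipper dimers. Fos proteins bind DNA only with a Jun partner, Jun proteins also pair with each other, and Atf3 and Batf3 join Jun proteins in further dimers. Many of the genes are induced within minutes of growth factor signalling through serum response elements, and in fibroblasts AP-1 occupies a large part of the open somatic enhancers. POU factors bind the octamer as monomers, the composite SoxOct element together with Sox2, and the palindromic MORE as homodimers.

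The sites on which most of the description rests are shown first, each on the plus strand of the GRCm38.p6 assembly from RefSeq with the matched motif in capitals. The Jund promoter stretch (chr8:70698715-70698948), which ends at the last base before the gene start, is shown because it holds summits of 5 libraries. That of Sox2 in Oct4-SK cells at day 5, 7 bp inside the gene in its UTR, made a merged site of 6. The capitals mark, in order, a KLF match on the minus strand (GCCCCACCC), a cAMP response element (CRE, TGACGTCA) and an octamer (ATGCAAAT).
Jund promoter: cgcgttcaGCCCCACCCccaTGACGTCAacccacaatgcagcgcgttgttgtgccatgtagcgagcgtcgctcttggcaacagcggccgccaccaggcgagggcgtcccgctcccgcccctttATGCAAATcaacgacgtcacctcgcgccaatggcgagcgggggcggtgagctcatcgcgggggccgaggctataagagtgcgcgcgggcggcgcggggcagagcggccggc

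Upstream of Junb (chr8:84979931-84980188), Sox2 summits of 4 libraries formed one merged site. The capitals mark a KLF match (GGGCGGGGC), within 100 bp of 3 of the 4 summits, and a CArG box (CCATATTAGG), the core of a serum response element, within 100 bp of 1, that of Oct4-SK cells at day 1. The day 5 summit of Oct4defSox2-SK cells had neither within 100 bp.
Junb upstream: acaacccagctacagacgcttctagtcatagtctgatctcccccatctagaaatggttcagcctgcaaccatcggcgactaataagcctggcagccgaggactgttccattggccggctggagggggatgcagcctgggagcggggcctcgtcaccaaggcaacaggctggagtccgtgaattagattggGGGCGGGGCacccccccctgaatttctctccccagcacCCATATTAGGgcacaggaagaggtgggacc

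The Fosb stretch (chr7:19327166-19327369) is the only one with a day 5 Sox2 summit in all 3 cocktails. Its capitals mark, in order, a KLF match on the minus strand, a Sox match (CCATTGT) and the AP-1 site TGACTCA.
Fosb upstream: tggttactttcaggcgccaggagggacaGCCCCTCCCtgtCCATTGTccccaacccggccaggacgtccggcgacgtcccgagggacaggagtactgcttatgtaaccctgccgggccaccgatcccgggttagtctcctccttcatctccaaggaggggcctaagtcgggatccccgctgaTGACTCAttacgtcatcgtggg

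Day 1 sites of different kinds lay upstream of Fos. The first (chr12:85445953-85446019) was shared by Oct4, Oct4defSox2 and Oct4 S151M and carried a MORE match with 1 mismatch. The second (chr12:85461668-85461767) held the highest score of all 90 summits, and its capitals mark the 7 copies of ATGCAT in a tandem repeat.
Fos shared: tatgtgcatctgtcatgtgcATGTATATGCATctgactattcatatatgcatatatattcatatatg
Fos repeat: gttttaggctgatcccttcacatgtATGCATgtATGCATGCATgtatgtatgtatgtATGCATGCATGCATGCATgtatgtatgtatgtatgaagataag

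Sox2 summits at day 5 in Oct4defSox2-SK cells lay 51 bp from a Sox match next to an AP-1 site just inside Fosl2 (chr5:32135838-32135867, 5′ UTR) and 32 bp from a Sox match in its intron (chr5:32143677-32143742). The stretch printed for the first holds the motifs and not the summit itself, which is at position 32135899.
Fosl2 start: actcgtgCCATTGTagTGACTCAtctcggg
Fosl2 intron: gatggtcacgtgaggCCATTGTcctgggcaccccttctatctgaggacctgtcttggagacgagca

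A further MORE match, upstream of Fosb (chr7:19328561-19328622), and an adjoining Sox and AP-1 pair upstream of Atf3 (chr1:191247013-191247075) lay under Oct4 S151M summits.
Fosb MORE: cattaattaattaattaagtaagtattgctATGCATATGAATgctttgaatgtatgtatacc
Atf3 upstream: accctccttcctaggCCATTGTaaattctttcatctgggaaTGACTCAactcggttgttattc

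The libraries differed widely in yield, from 1038 summits (Oct4defSox2, day 5) to 101170 (Oct4 S151M), and counts near the members have to be read against it. The score of a summit is the −log10 p that MACS2 gave it. Its lowest value was 4.00 to 4.12 in 12 libraries and 2.3 in Oct6 M151S, whose median of 3.74 lay below the minimum of all others. The 9 windows together cover 900009 bases, 0.0330% of chromosomes 1 to 19, X and Y. By length alone they would hold 2.71 summits of the Oct4 day 1 library, where 2 were found, and 33.4 of Oct4 S151M, where 33 were found. Other libraries were farther from this reckoning, with 18 summits against 7.53 for Oct6 M151S, 14 against 7.12 for Sox2 in Oct4defSox2-SK cells at day 5, 5 against 1.93 for Sox2 in Oct4-SK cells at day 5 and 3 against 5.03 for that factor there at day 1. Set against as many average coding genes, the gap was smaller for Oct6 M151S, at 0.0789% of the library against 0.0476%. For Sox2 in Oct4defSox2-SK cells at day 5 it was 0.0649% against 0.0445%. Across the 13 libraries the members had 10 summits per gene on average, against 8.86 for all 21938 protein-coding genes.

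Of the 90 summits, 66 were of day 1 (73.3%), 24 of day 5 and none of day 7. Day 1 libraries held 82.6% of all 227116 summits, so the share of early summits near the members was below that of the series. Oct4 S151M gave 33 of the day 1 summits and Oct6 M151S 18. Without these libraries 15 day 1 summits were left, against 24 at day 5. The 82.6% includes their 101170 and 22804 summits. The day 1 share of all summits without them was not worked out, so 15 against 24 has no background here. The 5 time courses differed in direction and in yield. Oct4defSox2 fell from 9 summits near the members at day 1 to 1 at day 5 while its library shrank from 31070 summits to 1038, and Sox2 in Oct4defSox2-SK cells went from 1 to 14 while its library grew from 5794 to 21563. In the other 3 the count rose while the library shrank. From day 1 to day 5, Oct4 went from 2 to 3, with none at day 7, and Sox2 went from 3 to 5 in Oct4-SK cells and from 0 to 1 in Oct6-SK cells. As shares of the library, given further on, all 5 differences of day 1 minus day 5 were below 0, as they were for the average coding gene.

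**Figure D1:**
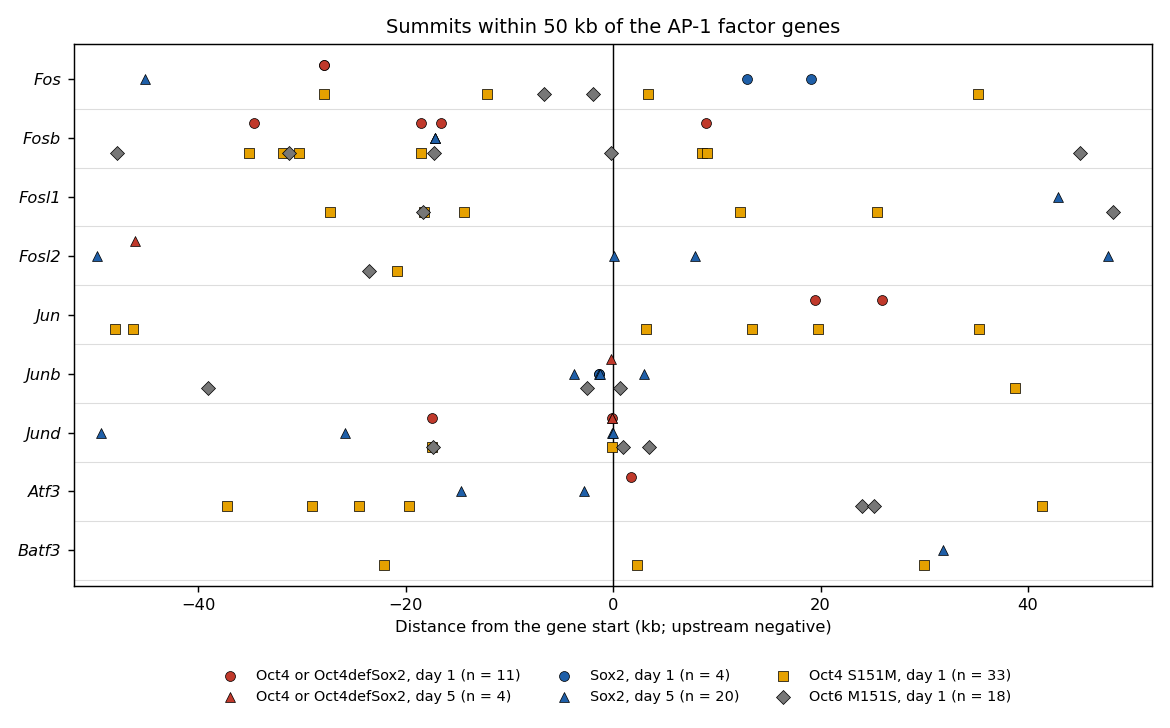
Each of the 90 summits is drawn by its distance in kb from the start of the gene named at the left (upstream negative), with the colour for the factor, circles for day 1 and triangles for day 5, and squares and diamonds for Oct4 S151M and Oct6 M151S. Some Sox2 summits of day 5 lie near the Junb and Jund starts and others elsewhere, as at Fosl2 and Fosb, and the squares are spread over all 9 windows.

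By position, 11 summits lay within 1 kb of a member start, 19 at 1 to 10 kb and 60 at 10 to 50 kb, and 56 were upstream. In GENCODE M21, 52 were intergenic, 25 intronic, 7 in a UTR, 4 in a coding exon and 2 in another exon. A member was the nearest protein-coding gene start for 63, and another gene for 27. The crowded windows were those of Fosl1 and Junb, each with 9 other protein-coding starts, then Fosb with 6, Jund with 5 and Batf3 with 2. The windows of Fos, Fosl2, Jun and Atf3 held no other protein-coding start. The Atf3 start used is the outermost one, and its most distant annotated transcript start lies 34931 bp into the gene. As for the edge of the rule, 10 summits lay at 45 to 50 kb and 2 more at 50 to 55 kb.

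Set against all coding genes, the share of the members with a summit lay on both sides of the background at day 1 and above it in all 5 libraries of day 5. With 9 genes each share moves in coarse steps, and these differences were not tested. At day 1, Oct4 had a summit near 2 of the 9 genes, against 22.7% of all coding genes. Oct4defSox2 had one near 5, against 55.3%. Sox2 had one near 2 genes in Oct4-SK cells against 37.9%, near none in Oct6-SK cells against 6.93%, and near 1 in Oct4defSox2-SK cells against 13%. All 9 genes had an Oct4 S151M summit, where 88% of coding genes had one, and 7 had one of Oct6 M151S, against 61.2%.

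At day 5, Oct4 had a summit near 3 of the 9 genes, against 19.2% of coding genes. Oct4defSox2 had one near 1, against 4.86%. Sox2 had one near 4 genes in Oct4-SK cells against 23%, near 1 in Oct6-SK cells against 9.97%, and near 7 in Oct4defSox2-SK cells against 57.7%. At day 7 Oct4 had no summit near any member, against 13.9% of coding genes, and 0 of 3638 summits allows a share of up to 0.105% (upper Wilson bound).

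**Figure D2:**
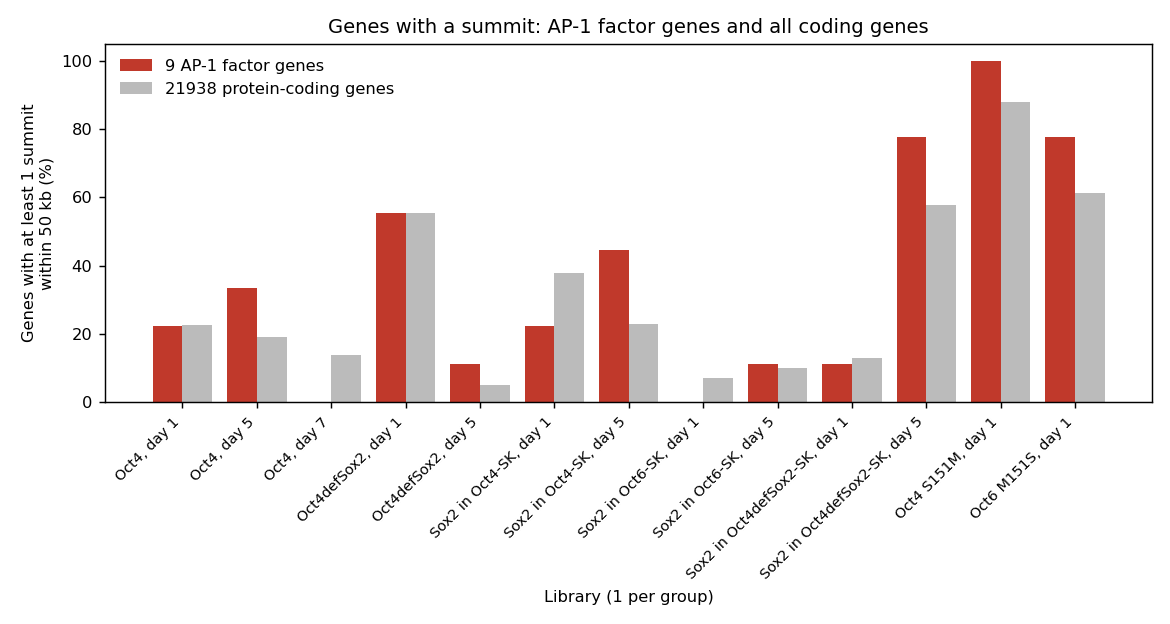
Bars give, for each library on the horizontal axis, the percentage of the 9 AP-1 factor genes (red) and of the 21938 protein-coding genes (grey) with at least 1 summit within 50 kb. The red bars are higher than the grey ones in the 5 libraries of day 5, and the Oct4 day 7 and Sox2 day 1 Oct6-SK libraries have no red bar.

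The question of early against later binding was put to each time course as the share of a library's own summits that fell near the members, which does not scale with the yield. Sox2 in Oct4-SK cells had 3 of 15222 summits there at day 1 and 5 of 5832 at day 5. The share was lower at day 1 (day 1 minus day 5, −0.0660 percentage points, Newcombe 95% interval −0.182 to −0.00379). This was the only one of 6 day comparisons whose interval excluded 0, on 8 summits in all. None of the 8 reached a score of 10 (highest 7.99 at day 1 and 7.49 at day 5). With that minimum the difference was therefore 0 (−0.156 to 0.0849) with no member summit left, which decides nothing. For Oct4 the difference was −0.0375 points for day 1 minus day 5 (−0.159 to 0.0387) and 0.0243 for day 1 minus day 7 (−0.0826 to 0.0887). Oct4defSox2 gave −0.0674 (−0.515 to 0.0161), from 9 of 31070 summits at day 1 and 1 of 1038 at day 5. Sox2 gave −0.0374 in Oct6-SK cells (−0.212 to 0.0849) and −0.0477 in Oct4defSox2-SK cells (−0.0939 to 0.0370). In these 5 the change was not detectable at this number of summits, although with windows of 100 kb the interval of Oct4defSox2 excluded 0 (−0.327, −0.929 to −0.0896). The common direction was also that of all coding genes. As many windows of the average coding gene held 0.0315% of the Sox2 library of Oct4-SK cells at day 1 and 0.0440% at day 5, where the members held 0.0197% and 0.0857%. For the average gene the share likewise went from 0.0316% to 0.0424% for Oct4, from 0.0312% to 0.0445% for Oct4defSox2, and for Sox2 from 0.0213% to 0.0380% in Oct6-SK and from 0.0246% to 0.0445% in Oct4defSox2-SK cells. Other gene groups varied with Sox2 in Oct4-SK cells. The share went from 0.0197% to 0.0686% for 10 AP-1 partners, from 0.0131% to 0.0343% for 10 upstream regulators and from 0.0591% to 0.154% for 10 other immediate early genes, but from 0.0591% to 0.0686% for 10 mesenchymal factors and from 0.0394% to 0.0343% for 10 naive pluripotency genes. Whether the members differed from these was not tested.

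The cocktails were compared at day 1 in the same way. Relative to Oct4, the share near the members differed by 0.00462 points for Oct4defSox2 (−0.0612 to 0.0361), 0.00828 for Oct4 S151M (−0.0568 to 0.0303) and 0.0546 for Oct6 M151S (−0.0160 to 0.104). All 3 intervals included 0. Of the 18 Oct6 M151S summits, 11 scored under 4 and would not have entered the other lists, and 5 had a q-value under 0.05. All 33 Oct4 S151M summits had a q-value under 0.05.

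Of the early summits within 50 kb of a member start, few had a later counterpart within 100 bp. Neither of the 2 Oct4 summits of day 1 was found at day 5 or at day 7, while 24.5% and 13.1% of all day 1 Oct4 summits were. For Oct4defSox2, 1 of 9 was found at day 5 (11.1%, Wilson 95% interval 1.99 to 43.5%), against 2.35% of all. For Sox2, 1 of 3 was found in Oct4-SK cells (33.3%, 6.15 to 79.2%), against 7.23% of all, and 1 of 1 in Oct4defSox2-SK cells, against 32.7%. No Sox2 summit lay near a member in Oct6-SK cells at day 1, where 0 of 3242 allows a share of up to 0.118% (upper Wilson bound), so retention could not be given there. With windows of 100 kb these shares became 40% (2 of 5) for Oct4 at day 5, 20% (1 of 5) at day 7, 22.2% (4 of 18) for Oct4defSox2 and 11.1% (1 of 9) for Sox2 in Oct4-SK cells, so they rest on the window. Seen from day 5, a day 1 counterpart was present for 0 of 3 Oct4 summits against 41.5% of all and for 1 of 1 Oct4defSox2 summit against 70.4%. For Sox2 it was present for 1 of 5 in Oct4-SK cells against 18.9%, 0 of 1 in Oct6-SK cells against 12.2% and 1 of 14 in Oct4defSox2-SK cells against 8.79%. The 3 retained summits lay at 2 genes, Jund for Oct4defSox2 and Junb for Sox2 in both cocktails.

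Merging the summits of the 11 time course libraries within 100 bp gave 30 sites near the members. Of these, 11 held day 1 summits only, 17 day 5 summits only and 2 both. The Sox2 summit of Oct4-SK cells at the Jund start is one of the 17, since only Oct4 S151M links it to the others there. Over all 13 libraries there were 74 sites, 67 of them in 1 library and 7 in 2 or more. Neither split was worked out over all merged sites of the series, so these counts have no background here. The plot of scores at those 7 sites shows that 4 of them were made of day 1 summits alone.

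**Figure D3:**
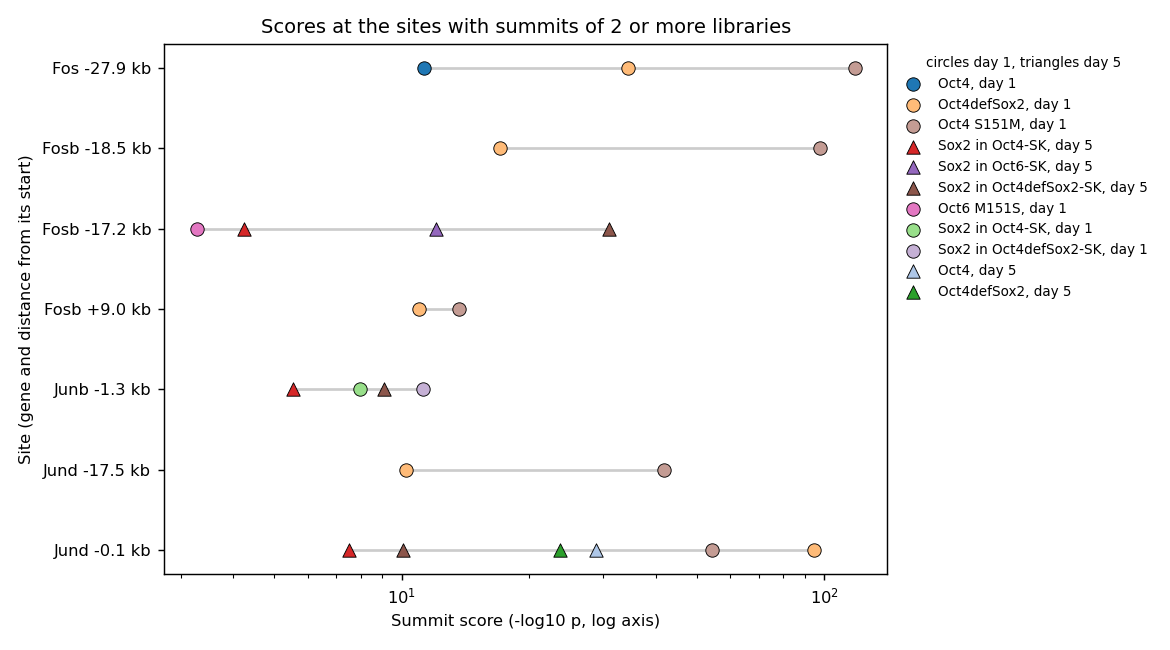
Scores (−log10 p, log axis) of every summit at the 7 sites seen in 2 or more libraries, named by gene and distance from its start, with circles for day 1, triangles for day 5 and a colour for each library. At 4 sites there are circles only, and the Jund promoter site holds 6 libraries.

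Fos, the inducible partner that gives the family its name, had 11 summits in 6 libraries. The site 27.9 kb upstream had the highest time course score of those with day 1 summits only. It scored 11.3 for Oct4, 34.3 for Oct4defSox2 and 118 for Oct4 S151M, and no library of day 5 or 7 had a summit within it. Its MORE match lay 16 bp from the site centre. Of the other summits, Sox2 in Oct4-SK cells gave 2 downstream at day 1, with scores of 6.22 and 7.66, and Sox2 in Oct4defSox2-SK cells gave 1 at day 5, 45.1 kb upstream, with 8.62. No summit of any library lay within 1 kb of the Fos start. The summit in the ATGCAT repeat 12.2 kb upstream belonged to Oct4 S151M alone. Its score of 665 exceeded 99.6% of that library, and its fold enrichment over the local background was 94.8. At least 1 ATGCAT within 50 bp was found at 36.3% of all Oct4 S151M summits, and 7 or more at 0.0534%. None of the 8 motif searches matched at this summit, and the repeat was picked out after its sequence was seen.

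Fosb, the paralogue of Fos induced with it, had the most summits of the 9 genes, 18 in 6 libraries, which is more than 90.3% of coding genes had. Of these, 6 were of Oct4 S151M, 5 of Oct6 M151S and 4 of Oct4defSox2 at day 1. The site 17.2 kb upstream, in an intron of the noncoding D830036C21Rik, had the highest score of those with later summits only. Its Sox2 scores at day 5 were 4.24 in Oct4-SK, 12.1 in Oct6-SK and 30.9 in Oct4defSox2-SK cells, and Oct6 M151S added a summit of 3.27. No Sox2 library of day 1 had a summit in the window. The 3 Sox2 summits spanned positions 19327181 to 19327264, and each had the Sox and KLF matches within 100 bp, whereas the AP-1 site lay within 100 bp of the Oct4defSox2-SK summit and the Oct6 M151S summit. A day 5 Sox2 summit in all 3 cocktails within 50 kb was found for 5.86% of coding genes and for 1 of the 9.

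In the same window the Oct4 antibody pointed elsewhere. The site 18.5 kb upstream scored 17.1 for Oct4defSox2 and 98.1 for Oct4 S151M at day 1 and was second by that score among sites with day 1 summits only. Its MORE match lay 11 bp from the centre. A site 9.0 kb downstream scored 11 and 13.7 in the same libraries and held an octamer. Oct4defSox2 had no summit near Fosb at day 5, and Oct4 had none at any day. At the start itself there was 1 summit, of Oct6 M151S, 246 bp upstream, with a score of 3.27 and a CArG box 15 bp from it, and its −log10 q of 0.521 did not reach the 0.05 threshold.

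Fosl1 and Fosl2 encode the Fra proteins, which lack the transactivation domain of Fos and Fosb. Fosl1 had 8 summits, 5 of them of Oct4 S151M, with scores from 10.9 to 110, and the highest lay 12.2 kb downstream but 878 bp from the start of Fibp. Its single time course summit, of Sox2 at day 5 in Oct4defSox2-SK cells (score 10.1), lay 21 bp from the start of Cfl1. None of the 8 was closer to Fosl1 than 12.2 kb. Fosl2 had 7 summits and was the gene with most Sox2 summits in 1 library. Sox2 at day 5 in Oct4defSox2-SK cells gave 4, scoring 25.8 in the intron 7.9 kb downstream, 12.4 at 98 bp inside the gene, and 4.18 at both outer sites. Neither Sox2 nor the Oct4 antibody had a day 1 summit near Fosl2 in the time courses. Oct4 at day 5 gave 1, 46.1 kb upstream, scoring 7.39 beside an AP-1 site. The strongest summit near Fosl2 was of Oct4 S151M, 20.8 kb upstream, with 35.0.

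Jun, the founding partner of the dimer, had 8 summits, all of day 1 and all of the Oct4 antibody. Oct4 gave 1 (score 4.16), Oct4defSox2 gave 1 (11.8) and Oct4 S151M gave 6 (8.51 to 210). The highest lay 19.8 kb downstream in the noncoding Gm12703, beyond the sharing distance from the Oct4 summit. Sox2 had no summit near Jun in any of 6 libraries. Among the 9 genes, Jun was the only one without a day 5 summit.

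Junb, a Jun protein often opposed to Jun in growth control, had 11 summits in 7 libraries. The site 1.3 kb upstream was the only one at which Sox2 was found at both days in 2 cocktails. It scored 7.99 at day 1 and 5.54 at day 5 in Oct4-SK cells, and 11.2 and 9.10 in Oct4defSox2-SK cells. The scores were thus a little lower at day 5 in both, with no replicate to judge the difference by. Summits of the 4 libraries spanned 84979951 to 84980084, and the pair in Oct4defSox2-SK cells was not shared at a distance of 50 bp. The CArG box lay 146 bp from the site centre. Oct6-SK cells had no Sox2 summit near Junb at either day. The Oct4 antibody gave only 1 summit in the time courses, at day 5, 194 bp upstream and scoring 4.78.

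Jund, the Jun gene with constitutive expression in many tissues, had 13 summits in 7 libraries and the most shared site. At the site 69 bp upstream, Oct4defSox2 scored 94.7 at day 1, which exceeded 98.8% of its library, and 23.7 at day 5. Oct4 S151M scored 54.3 at day 1. Oct4 scored 28.9 at day 5 and had no summit there at days 1 and 7. Sox2 scored 7.49 in Oct4-SK and 10.1 in Oct4defSox2-SK cells at day 5 and had no summit there at day 1 or in Oct6-SK cells.

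At the Jund promoter the summits were measured from the octamer shown above. Those of the Oct4 antibody lay 7.5 bp (Oct4defSox2, day 1), 13.5 bp (Oct4defSox2, day 5), 21.5 bp (Oct4, day 5) and 24.5 bp (Oct4 S151M) from its middle. The Sox2 summits lay 36.5 bp away in Oct4defSox2-SK and 114.5 bp away in Oct4-SK cells. The octamer was 104 to 111 bp and the CRE 207 to 214 bp upstream of the start. All 4 summits with a CRE within 100 bp came from this one site. The single Oct4defSox2 summit near any member at day 5 was this one. With the Oct6 M151S summit 996 bp downstream (score 3.36), summits of 7 libraries lay within 1 kb of the Jund start, as at 36 of the 21938 coding genes (0.164%).

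Other summits near Jund were closer to neighbours. A site 17.5 kb upstream scored 10.2 for Oct4defSox2 and 41.9 for Oct4 S151M, and the Sox2 summit 25.8 kb upstream (score 6.46) was 139 bp from the start of Lsm4.

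Atf3, a stress-induced member that can bind AP-1 and CRE sites, had 10 summits, and Batf3, which guides dendritic cell development together with Jun proteins, had 4. Oct4 S151M gave 5 of the 10 at Atf3, with scores of 16.0 to 89.2, and 3 of the 4 at Batf3, with 5.31 to 22.6. The highest at Atf3, 29.0 kb upstream, was within 100 bp of AP-1, Sox, KLF and MORE matches. In the time courses Atf3 had an Oct4defSox2 summit at day 1 in its intron (1.8 kb downstream, score 11.2) and 2 Sox2 summits at day 5 in Oct4-SK cells (2.8 and 14.7 kb upstream, scores 7.49 and 6.17). It was the only member with Sox2 in Oct4-SK cells at day 5 and none in Oct4defSox2-SK cells. Batf3 had 1 time course summit, of Sox2 at day 5 in Oct4defSox2-SK cells (score 7.24), 31.8 kb downstream with an AP-1 and a Sox match.

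**Figure D4:**
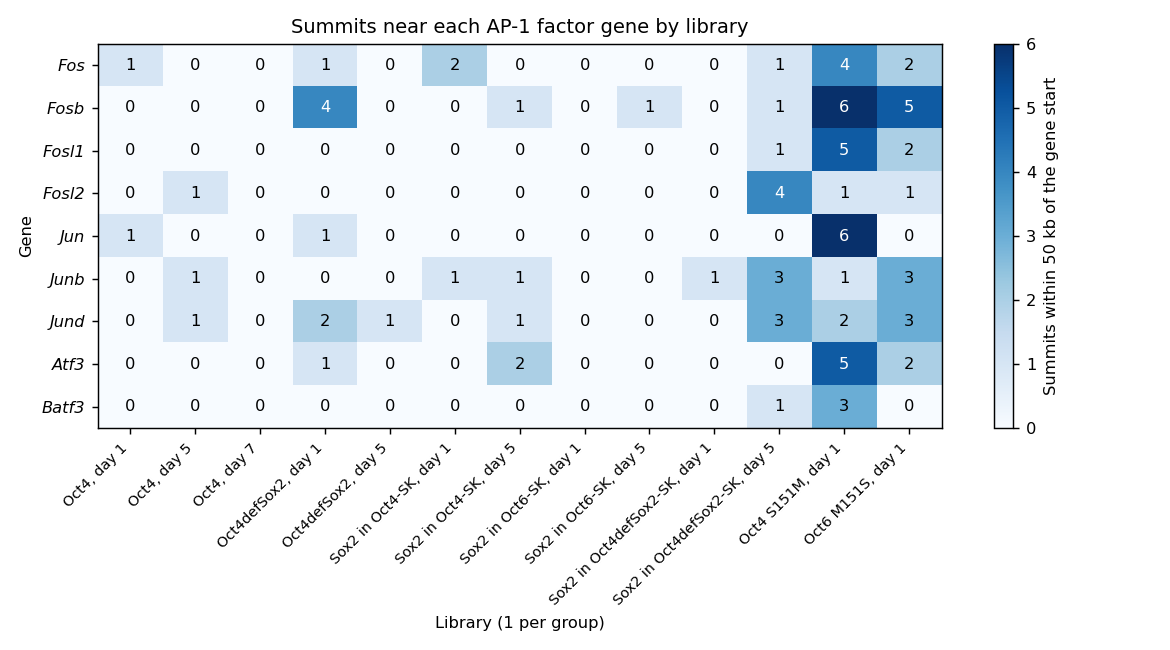
Number of summits within 50 kb of each gene start (rows) in each library (columns), with darker blue for more. Jun has summits of the Oct4 antibody at day 1 only, and the column of Sox2 in Oct4defSox2-SK cells at day 5 reaches 7 of the 9 genes.

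Summits within 1 kb of a member start were few. In the time courses they were found for 2 members with Oct4 at day 5, against 1.5% of coding genes, and for 1 with Oct4defSox2 at day 1 (4.65%) and at day 5 (0.315%). Sox2 at day 5 had them for 1 member in Oct4-SK cells (1.85%) and 2 in Oct4defSox2-SK cells (8%). For Oct4 S151M there was 1 (7.82%) and for Oct6 M151S there were 3 (6.66%). The genes concerned were Jund throughout, Junb with Oct4 and Oct6 M151S, Fosl2 with Sox2 in Oct4defSox2-SK cells and Fosb with Oct6 M151S.

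The AP-1 site itself, bound by the products of these genes, was searched as TGACTCA on both strands within 100 bp of each summit. It was present at 12 of the 90 summits (13.3%, Wilson 95% interval 7.79 to 21.9%), against 9.55% of the 226872 other summits on the main chromosomes, a difference of 3.79 points (Newcombe 95% interval −1.75 to 12.3). The 12 lay near Fosb, Fosl2, Jun, Junb, Atf3 and Batf3, and none near Fos, Fosl1 or Jund. With TGACGTCA also accepted the difference was 8.05 (1.52 to 17.2), through the 4 summits of the Jund promoter. Among time course sites, 2 of 11 with day 1 summits only and 4 of 19 with a later summit held TGACTCA, a difference of −2.87 points (−28.7 to 29.2). With TGACTCA alone, neither interval excluded 0.

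Of the POU motifs, the octamer was found at 8 of the 90 summits (8.89% against 5.72% elsewhere), 5 of them at the Jund promoter. MORE, allowed 1 mismatch, was found at 10 (11.1% against 13.1%), all of day 1, of which 7 were Oct4 S151M summits. SoxOct, allowed 2 mismatches, was found at 0 of 90, which allows up to 4.09% (upper Wilson bound), against 2.83% elsewhere. The Sox match, CCATTGT or CCTTTGT, was found at 10 (11.1% against 15.4%). The intervals of these 4 differences included 0. CRE was found at 4 (4.44% against 0.191%, a difference of 4.25 points, 1.55 to 10.7), all at 1 site.

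KLF matches, GGGNGNGGC on either strand, a core recognised by Klf4 and its relatives, were more frequent near the members. They were present at 21 of the 90 summits (23.3%) against 3.99% elsewhere, a difference of 19.3 points (11.8 to 29.1). The interval treats summits as independent. Several of the 21 shared a site, at Fosb (17.2 kb upstream), Junb (1.3 kb upstream) and the Jund promoter. By merged site, 13 of 74 held a match within 100 bp of the centre. Oct4 S151M, with matches at 2.45% of its other summits, gave 33 of the 90 summits and 101118 of the 226872 others. KLF matches were found at 0 of the 11 day 1 only sites and 8 of the 19 sites with a later summit, a difference of −42.1 points (−63.7 to −10.0). Base composition and position moved with this result. The windows around the 90 summits had a median GC content of 49.3% against 39.3%, and 18.9% of them lay within 1 kb of a protein-coding start against 3.28%. Farther than 1 kb from any such start, KLF matches were at 14 of 73 member summits (19.2%) and 3.50% of the others. With the other summits weighted to the GC content of the member windows in bands of 5%, KLF matches were at 12.0% of the others, and the difference of 19.3 points became 11.3. By band, they were at 1 of 23 member summits and 1.19% of the others under 40% GC, 1 of 25 and 5.10% from 40 to 50%, 8 of 23 and 12.5% from 50 to 60%, and 11 of 19 and 33.5% above. Day 1 only sites were mostly of the Oct4 antibody and later sites mostly of Sox2, so these classes do not separate day from factor. By summit, Sox2 had KLF matches at 1 of 3 at day 1 and 4 of 5 at day 5 in Oct4-SK cells. In Oct4defSox2-SK cells Sox2 had 1 of 1 and 5 of 14. Oct4 had 0 of 2 at day 1 and 2 of 3 at day 5, and Oct4defSox2 had 0 of 9 and 0 of 1. The day 1 Sox2 matches lay at the Junb site with summits of both days, which is not a day 1 only site.

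**Figure D5:**
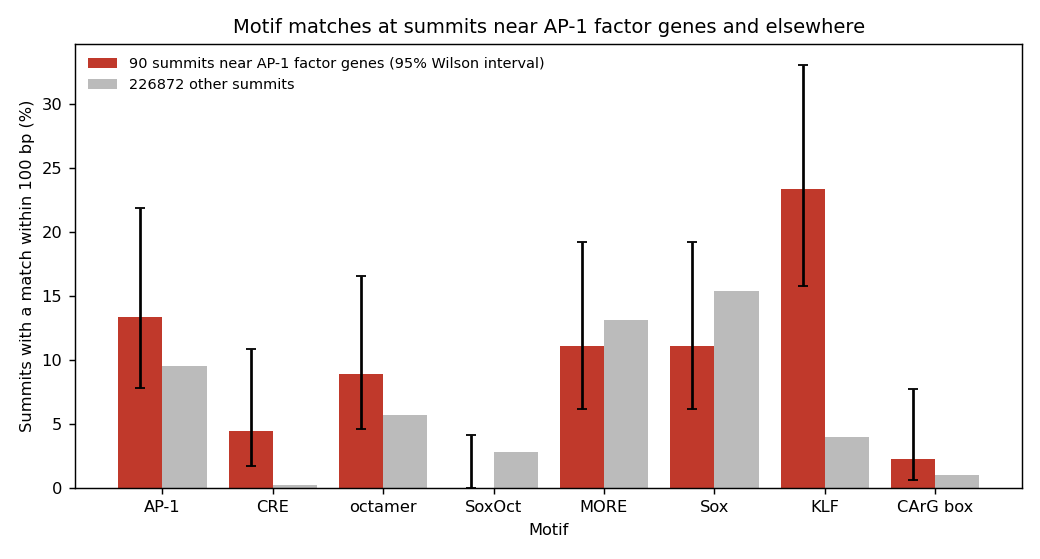
Percentage of summits with each motif within 100 bp, for the 90 summits near AP-1 factor genes (red, 95% Wilson interval) and the 226872 others (grey). KLF and CRE are the motifs whose red interval lies above the grey bar. The 4 CRE matches come from 1 site, and several KLF matches share a site.

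Other gene groups gave a scale for these counts. Over the 13 libraries the 10 AP-1 partners and relatives (Batf, Maf genes and others) had 7.4 summits per gene and the 10 upstream regulators (Srf, Elk and Mapk genes) 9.4, beside 10 for the members. The 10 other immediate early genes (Egr2, Dusp1, Btg2 and others) had 16.6, and the 10 mesenchymal factors 14.9. The 10 naive pluripotency genes had 8.5. Sox2 at day 5 in Oct4defSox2-SK cells, the library with most time course summits near the members, had a summit near all 10 immediate early genes, 7 of the 10 upstream regulators, 7 of the 10 mesenchymal factors, 6 of the 10 partners and 4 of the 10 naive pluripotency genes, against 57.7% of all coding genes and 7 of the 9 members. By the pattern of counts over the 13 libraries (Pearson r of log2 of the count plus 1), the genes most like Fosb and over 1 Mb away were Slc5a9 (r = 0.989), Stip1 (0.985), Tbcel (0.977), Fermt3 (0.965) and Macrod1 (0.962). These points share the yields of the libraries, and the values are a description only.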

How the data were processed

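ChIP-seq summits of 13 libraries were analysed; the 3 input libraries were not used here. By the study's methods, the authors aligned paired-end reads (shorter for Oct4 at day 7) to mm10 with Bowtie2 (2.2.5 in the submitters' processing notes), kept unique reads with SAMtools and called peaks and summits per library with MACS2 by a p threshold. The deposited summit score is a −log10 p-value, and the deposited peak files of Oct4 S151M and Oct6 M151S add fold enrichment (a ratio) and −log10 q-values. Read depth per library was not given in the files; the number of summits ranged from 1038 to 101170 and sets the precision. Summits lacking a main chromosome (154 of 227116) entered library totals and not the motif searches.

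From these files, summits within 50 kb of a member start (GENCODE M21) were counted. Summits within 100 bp were treated as shared and merged. Shares were given Wilson 95% intervals and differences Newcombe 95% intervals; no p-value was computed, since each group had 1 library. Motifs were searched within 100 bp of summits on both strands of GRCm38.p6, whose chromosomes matched all summit positions. Python 3.11.15, numpy 2.4.6, scipy 1.17.1 and matplotlib 3.10.9 were used. On simulated data all 1800 planted motifs were found. The sites named by rule were, per gene, the one with most libraries, the 2 highest-scoring of each day class, and all within 1 kb. Further summits were described gene by gene outside this rule, among them the Fos repeat. Members, lists and sites were chosen with earlier results of these data known. Alternatives changed the window, gene start, score minimum, sharing distance, summits per peak, numbers of summits, motif, base composition and libraries.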

Additional observations from a re-analysis of the deposited data

How the results depend on the processing

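No paired analysis was possible because each group held 1 library and no test across replicates was run. Of the 118 alternatives computed, 93 kept the direction and whether the interval excluded 0, or stayed within the main interval or 1.5 times the main count. In percentage points, the share near the members turned to −0.0216 for Oct4 at day 1 minus day 7 with windows of 100 kb and to −0.00314 with any transcript start. With 100 kb it turned to −0.00292 for Oct4defSox2 against Oct4 and −0.00254 for Oct4 S151M against Oct4, and Oct4defSox2 at day 1 minus day 5 became −0.327 (−0.929 to −0.0896). With scores of at least 10 it was 0 for Sox2 in Oct4-SK cells and −0.0209 for Oct6 M151S against Oct4. No member summit of Sox2 in Oct4-SK cells or of Oct6 M151S (highest 8.19) reached that score, so neither value can decide the comparison. Cut to the strongest summits in equal numbers, the share differed by 0 in 4 of the 9 comparisons, namely Oct4 at day 1 minus day 7, Oct4defSox2 at day 1 minus day 5, and Oct4defSox2 and Oct4 S151M against Oct4. Retention of Oct4defSox2 was 100% (1 of 1) with equal numbers of strongest summits. That of Sox2 in Oct4defSox2-SK cells was 0 (of 1) with equal numbers, with scores of at least 10 and with sharing within 50 bp. The AP-1 motif share of day 1 only minus later sites was 2.39 points within 50 bp, 21.5 with 1 mismatch and 1.47 with 100 kb windows. Members minus others gave −3.08 with 1 mismatch and 8.05 with TGACTCA or TGACGTCA. Added after the data were seen, weighting the other summits to the GC content of the members took the KLF difference from 19.3 to 11.3 points, and the 90 summits became 57 without Oct4 S151M and 39 without Oct6 M151S as well, and the 66 of day 1 became 33 and 15. The cause of these changes was not tested. A score minimum, equal numbers or dropped libraries left fewer summits. Windows of 100 kb took in more (174 near the members), and the motif alternatives kept all 90. The number of summits limits every comparison, since 1 to 3 summits often decide a share.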
